A study of Mus musculus with 59 samples.

Results

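The levels of 10 chemokine genes, Ccl2, Ccl7, Ccl8, Ccl11, Cxcl1, Cxcl9, Cxcl10, Cxcl12, Cxcl13 and Cxcl14, were compared in muscles of mice that carried a melanoma. The genes were taken by symbol from a table of 47643 gene symbols, and all 10 had a row. Chemokines are small secreted proteins that bind receptors on leukocytes and on stromal cells and steer cell movement. In muscle they are made by resident macrophages, fibroblasts, vessel cells and, under inflammatory signals, by the fibres themselves, and they bring blood monocytes and granulocytes into damaged tissue. Some are set at a steady level in most tissues, such as Cxcl12, and others are low until interferon or NF-kappaB signals raise them, such as Cxcl9, Cxcl10, Ccl2 and Cxcl1.

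RNA-seq was done on 59 libraries of 3 muscles, the diaphragm (the main muscle of breathing), the tibialis anterior (a fast muscle of the shin) and the soleus (a slow calf muscle). All mice were female NCI Ath/nude mice of 4 months, which lack a thymus and so lack mature conventional T cells, and all carried a human melanoma xenograft. One xenograft caused muscle loss (CAC, cachectic) and the other did not (NONCAC, non-cachectic). Each was a single patient-derived tumour, so a difference between the melanomas is a difference between hosts of 2 tumours, and no group here is free of a tumour. In the diaphragm groups mice received intraperitoneal injections of recombinant Fibcd1 (rFibcd1), a protein with a fibrinogen domain that was tested here for its effect on fibre size, or mock injections of its carrier. Among mice with the cachectic melanoma, 10 diaphragms came from mock and 10 from rFibcd1 treatment. With the non-cachectic melanoma these numbers were 9 and 10. Each melanoma also gave 5 tibialis anterior and 5 soleus libraries, whose labels name no rFibcd1. The labels do not say which muscles came from 1 mouse. Values are TPM, a transcript abundance that is divided by transcript length and scaled to the same total in every library, so the depth behind each value is unknown and levels of different genes can be set side by side. A bulk library cannot tell fewer cells of a type from less RNA per cell.

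Between 16436 and 19456 genes were above 0 in a library. Myh4, the myosin of the fastest fibres, had a median of 11695 TPM in the non-cachectic tibialis anterior and 12.1 TPM in the non-cachectic soleus, and 1 cachectic soleus library stood apart at 4989 TPM against 31.2 to 69.8 TPM in the other 4. The libraries also fell into 2 sets by a Pcna pseudogene, Pcna-ps2, which was at 5.6 to 22.8 TPM in 36 libraries (high state) and at 0 to 0.428 TPM in the other 23 (low state). The high state held 9 of 10 cachectic mock, 8 of 10 cachectic rFibcd1, 3 of 9 non-cachectic mock and 6 of 10 non-cachectic rFibcd1 diaphragms. In both limb muscles all cachectic libraries were in the high state and all non-cachectic libraries in the low state, so there the state and the melanoma cannot be told apart. Mitochondrially encoded genes took 32.9 to 41.6% of TPM in cachectic and 41.9 to 51.9% in non-cachectic mock diaphragms, 25.1 to 45.6% and 47.3 to 51.7% in the tibialis anterior and 24.1 to 34.6% and 39 to 44% in the soleus, with no overlap in any of the 3, while under rFibcd1 the ranges overlapped (29.8 to 46.4% and 39.3 to 49%). Since TPM sums to the same total in every library, this share moves with each melanoma difference that follows, and its part in them was not tested apart from the median-ratio scaling given beside them.

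The 10 genes lie on 4 chromosomes of GRCm38, with positions from GENCODE M21. Ccl2 (chr11:82035571-82037453), Ccl7 (chr11:82045712-82047525), Ccl11 (chr11:82057823-82062955) and Ccl8 (chr11:82115185-82116799) lie on the forward strand within 81.2 kb. Cxcl1 (chr5:90891241-90893115, forward), Cxcl9 (chr5:92321347-92328079, reverse), Cxcl10 (chr5:92346638-92348889, reverse) and Cxcl13 (chr5:95956951-95961068, forward) share chromosome 5, and Cxcl9 and Cxcl10 are 18558 bases apart. Cxcl12 (chr6:117168535-117181367, forward) and Cxcl14 (chr13:56288643-56296551, reverse) lie apart from both clusters.

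Promoter sequences were read from RefSeq on GRCm38.p6, as 300 bases from 250 before to 50 after the start site, and 7 of the 10 genes had an entry (Ccl2, Ccl7 and Ccl11 had none). The windows were searched on both strands for 3 arrangements of letters that resemble sites of inducible factors. The first was GAAA, any 2 bases, GAAA, as in interferon-response elements, the next TTC, any 3 bases, GAA, as in STAT sites, and the last GGG, any 2 bases, TTTCC, as in NF-kappaB sites. Of 32851 mouse promoters, 3.44% held the first, 8.3% the next and 1.63% the last. Cxcl10 held the first at position -213, Cxcl14 held the first at -172 and the STAT-like pattern, which matches on both strands, at -191, and Cxcl1 held the NF-kappaB-like letters at -71 and, on the reverse strand, at -89. The matches do not overlap each other. No match stood in the windows of Ccl8, Cxcl9, Cxcl12 and Cxcl13, which says only that these letters are not there. The following stretches are 5′ to 3′ on the strand of the gene, with matches in capitals; Cxcl10, Cxcl1 and Cxcl14 are shown for their matches, and Ccl8 and Cxcl13, in lower case throughout, because their RNA differed most between the melanomas.
Cxcl10 (chr5:92349040-92349139, reverse strand): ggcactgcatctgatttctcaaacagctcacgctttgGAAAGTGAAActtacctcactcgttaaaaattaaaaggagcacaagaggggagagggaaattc
Cxcl1 (chr5:90891125-90891204, forward strand): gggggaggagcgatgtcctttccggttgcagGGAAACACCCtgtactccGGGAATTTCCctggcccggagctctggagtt
Cxcl14 (chr13:56296692-56296771, reverse strand): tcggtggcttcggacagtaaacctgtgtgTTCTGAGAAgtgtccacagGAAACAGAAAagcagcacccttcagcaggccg
Ccl8 (chr11:82115085-82115184, forward strand): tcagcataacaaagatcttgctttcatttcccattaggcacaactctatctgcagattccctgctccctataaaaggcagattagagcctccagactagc
Cxcl13 (chr5:95956839-95956938, forward strand): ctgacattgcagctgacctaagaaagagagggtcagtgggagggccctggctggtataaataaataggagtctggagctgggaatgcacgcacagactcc

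In the diaphragm of mice with the non-cachectic melanoma under mock treatment, the steady-state chemokine Cxcl12, ligand of Cxcr4, was the most abundant of the 10, with a median of 62.9 TPM. Ccl11 (eotaxin-1, ligand of the eosinophil receptor Ccr3) followed at 30.5 TPM and Cxcl14, a chemokine of epithelia and stroma whose receptor is not settled, at 27.9 TPM. Ccl8 (MCP-2) had a median of 6.15 TPM and Cxcl13, the B cell attractant that binds Cxcr5, one of 2.96 TPM. The inducible ligands were near 1 TPM: Ccl2 and Ccl7, ligands of the monocyte receptor Ccr2, had medians of 1.5 and 1.3 TPM, Cxcl9 and Cxcl10, the interferon-induced ligands of Cxcr3, 1.24 and 0.955 TPM, and Cxcl1, a neutrophil attractant through Cxcr2, 1.05 TPM. The ranges of Cxcl12 (56.7 to 100.1 TPM) and Ccl11 (23.3 to 32.6 TPM) did not overlap, those of Ccl11 and Cxcl14 (20.0 to 35.8 TPM) did, and those of the 5 lowest genes did as well. Cxcl12 had the highest median in all 6 groups of diaphragm and soleus, and Cxcl14 in both groups of the tibialis anterior.

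In mice with the cachectic melanoma Cxcl13, Ccl8 and Cxcl14 were higher in the mock diaphragm, and the levels of the steady Cxcl12 and of the inducible Ccl2, Ccl7, Cxcl1, Cxcl9 and Cxcl10 did not pass the test. This comparison asks what the cachectic tumour changes in untreated breathing muscle. With limma on log2(TPM + 1) and Benjamini-Hochberg adjustment over 13426 genes, 3 of 10 chemokines were higher and none lower at an adjusted p under 0.05, where 33.5% of all genes passed and 30.9% passed as higher. The share of members is close to that of all genes. Cachectic diaphragms had a median change of all genes of 0.20 on the log2 scale, and after median-ratio scaling, which takes this shift out, the same 3 were higher and Ccl11 was lower.

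Cxcl13 ranged from 15.3 to 422 TPM with a median of 70.9 TPM in cachectic mock diaphragms and from 1.16 to 91.1 TPM with a median of 2.96 TPM in non-cachectic ones. All 10 cachectic libraries lay above the non-cachectic median and 7 of 9 non-cachectic libraries lay below the lowest cachectic one, with the other 2 at 37.4 and 91.1 TPM. The difference was 3.48 ± 0.930 (SE) on the log2 scale, with an adjusted p of 0.00471 (limma). Summed markers of B cells, the cells Cxcl13 attracts, ranged from 24.3 to 1301 TPM in the cachectic and from 18.7 to 691 TPM in the non-cachectic mock diaphragms, none of the 7 markers passed the test, and none was at 0 in every library of either group. Summed adipocyte markers were at 764 to 3449 TPM, median 1045 TPM, against 572 to 1416 TPM, median 603 TPM, with none of 5 called and a list median of 0.72 beside 0.20 for all genes. Their part in the result was not tested.

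Ccl8 ranged from 11.3 to 89.2 TPM, median 59.7 TPM, in cachectic mock diaphragms, against 2.62 to 27.5 TPM, median 6.15 TPM. The groups overlapped, but 8 of 10 cachectic libraries were above the highest non-cachectic one. The difference was 2.60 ± 0.648 (SE) on the log2 scale, adjusted p = 0.00267 (limma), and the medians differed 9.71-fold. Summed macrophage markers moved the same way, from 446 to 1755 TPM with a median of 1068 TPM in cachectic and from 268 to 847 TPM with a median of 612 TPM in non-cachectic mock diaphragms. Among the 9 macrophage markers listed, Mrc1, Cd163, Lyve1, C1qa and C1qb were higher, by 1.00 to 1.56 on the log2 scale, and Lyz2 was the most abundant. Neutrophil markers were summed at 11.1 to 61 TPM against 3.99 to 24.8 TPM, and S100a8, S100a9 and Retnlg, 3 of the 4 tested, were higher (2 after scaling), where 30.9% of all genes were. Their part in the result was not tested.

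Cxcl14 ranged from 28.3 to 104 TPM, median 62.8 TPM, in cachectic mock diaphragms and from 20.0 to 35.8 TPM, median 27.9 TPM, in non-cachectic ones. In 9 of 10 cachectic libraries it was above the highest non-cachectic value. The difference of 1.21 ± 0.267 (SE) on the log2 scale had the smallest standard error of the 3, with an adjusted p of 0.000948 (limma).

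The library state bears on these values. Within the high state, medians in 9 cachectic and 3 non-cachectic mock diaphragms were 81.5 and 2.50 TPM for Cxcl13, 66.9 and 9.03 TPM for Ccl8, and 73.0 and 20.6 TPM for Cxcl14, and all 3 still passed the test, with adjusted p of 0.0371, 0.0467 and 0.0374. In that fit 805 of all genes were called, in place of 4501. With the state as a term over all libraries only Cxcl14 passed (1.35, adjusted p = 0.00267), while Cxcl13 differed by 2.66 (adjusted p = 0.0626) and Ccl8 by 1.29 (adjusted p = 0.085). That fit called 2059 of all genes.

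The 7 other chemokines did not pass in the mock diaphragm. Ccl11 was at 14.6 to 32.3 TPM in cachectic and 23.3 to 32.6 TPM in non-cachectic libraries, a difference of -0.35 on the log2 scale (adjusted p = 0.0737), and it was lower by the test after scaling (-0.57, adjusted p = 0.00896) and in a fit of these 2 groups alone (adjusted p = 0.0256). Eosinophils, which Ccl11 attracts, left almost no RNA: their 4 markers summed to at most 1.45 TPM in any library and Epx, their peroxidase, was at 0 in every library of both mock groups. Cxcl12 differed by 0.24 (95% interval -0.09 to 0.57). The intervals of the inducible genes were wide, at -1.29 to 0.74 for Ccl2, -0.98 to 1.16 for Ccl7, -0.74 to 0.60 for Cxcl1, -2.32 to 1.01 for Cxcl9 and -1.77 to 1.04 for Cxcl10. For Cxcl9 the 2 highest mock libraries were non-cachectic, at 26.4 and 35.5 TPM, against 8.28 TPM at most in cachectic ones.

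**Figure D1:**
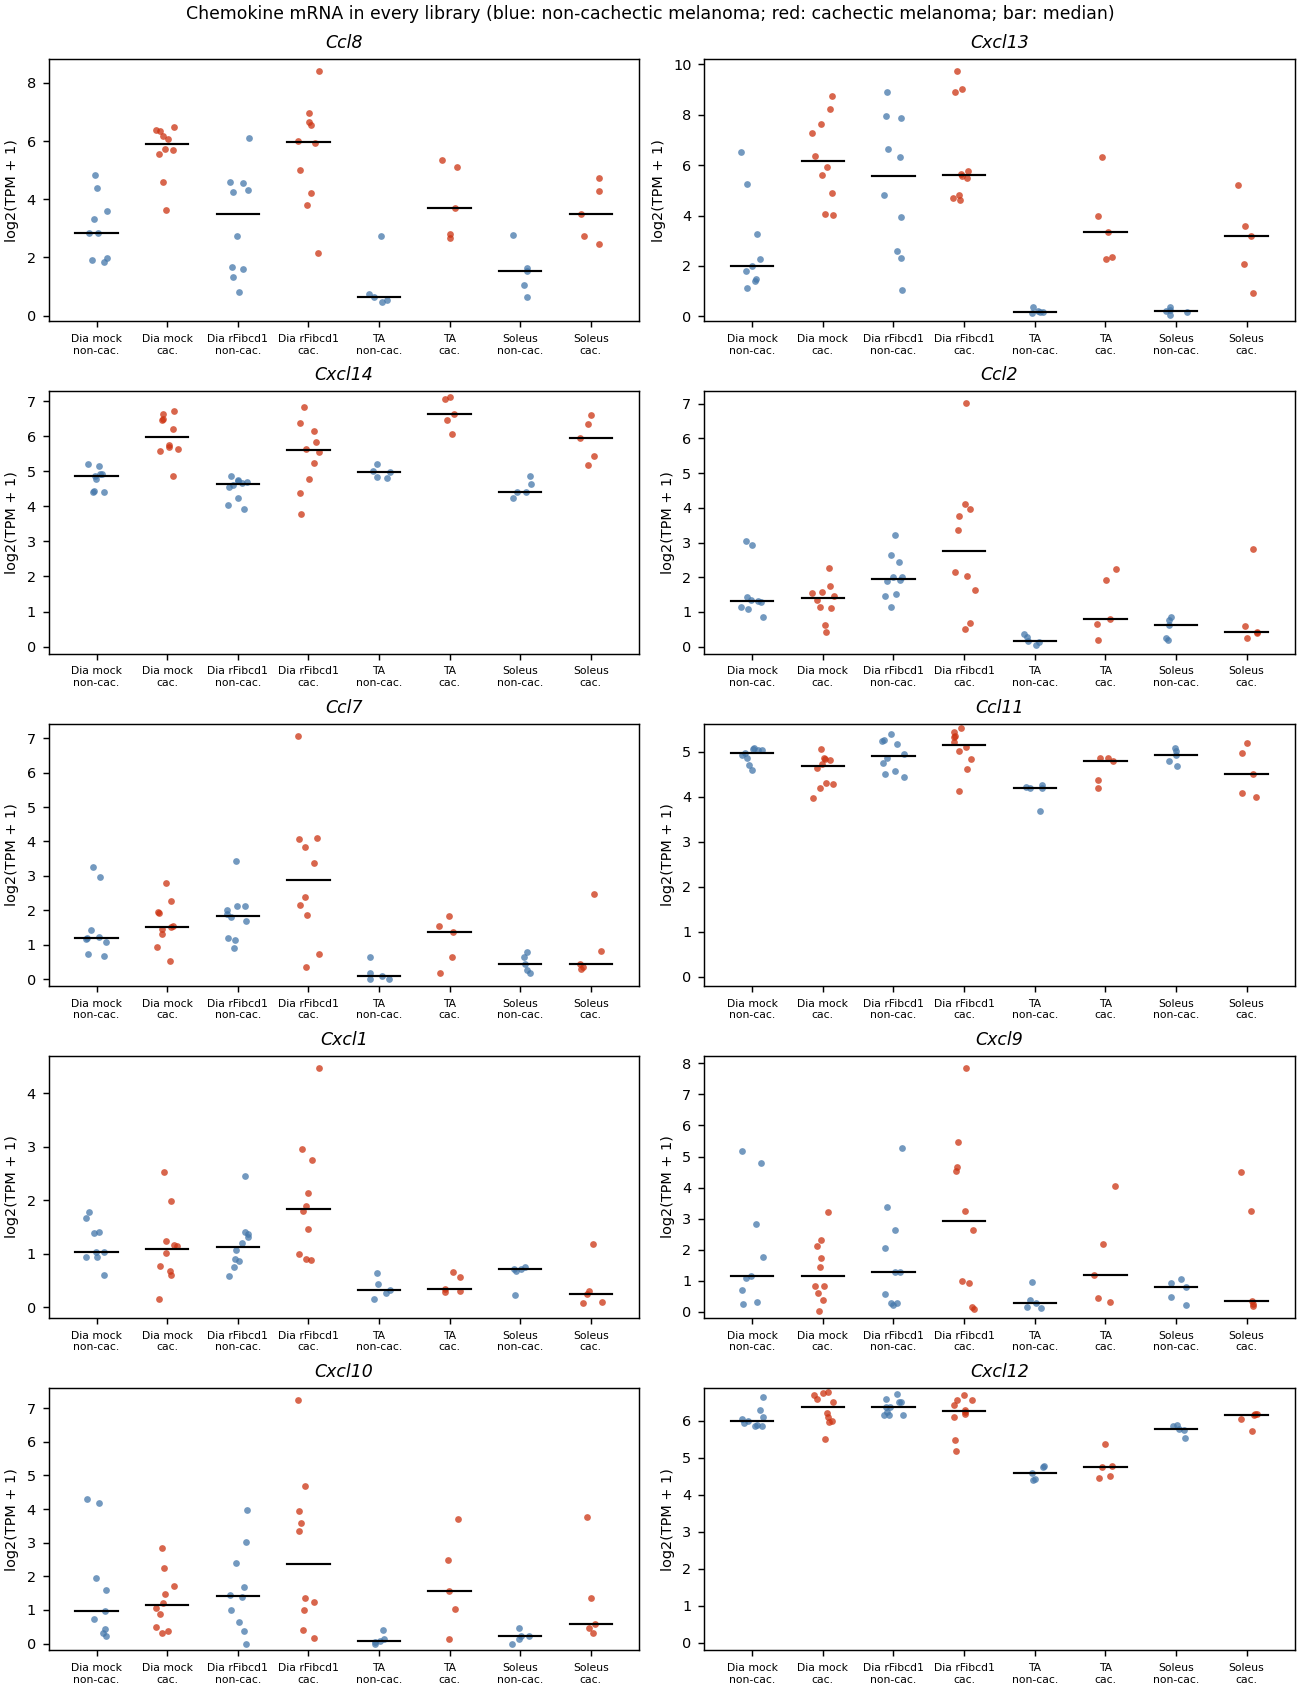
Level of each of the 10 chemokines as log2(TPM + 1) on the y axis, 1 point per library in the 8 groups on the x axis (blue non-cachectic, red cachectic; Dia, diaphragm; TA, tibialis anterior), with a bar at the group median. The medians of Ccl8, Cxcl13 and Cxcl14 are higher in the cachectic group of each pair, except for Cxcl13 under rFibcd1 (47.6 against 52.8 TPM), while Ccl2, Ccl7, Cxcl1, Cxcl9 and Cxcl10 reach their highest values in a library of the cachectic rFibcd1 diaphragm group.

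In the tibialis anterior Cxcl13, Ccl8, Cxcl14 and Ccl11 were higher with the cachectic melanoma. Of the 10 chemokines 5 were abundant enough to be tested (TPM of at least 1 in 5 of the 10 libraries), and for Ccl8 and Cxcl13 this rested on the cachectic libraries, so that their difference was in part set by the filter. Of the 5, 4 were called higher by limma, where 60.2% of all 11105 genes passed and 56.4% as higher, and without the filter 6 of 10 were higher. The median change of all genes was 0.41 on the log2 scale.

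Cxcl13 was at 3.83, 4.18, 9.04, 14.9 and 79.4 TPM in the cachectic tibialis anterior and at 0.0837, 0.126, 0.127, 0.148 and 0.295 TPM in the non-cachectic. The groups did not overlap, as held for 51.7% of genes tested in this muscle, and the difference was 3.45 ± 0.604 (SE) on the log2 scale, adjusted p = 0.00163 (limma). Of the 7 B cell markers, 6 were under 1 TPM in every library of both groups. The remaining one, the immunoglobulin gene Ighm, was at 3.64 to 28.2 TPM in cachectic and 42.1 to 198 TPM in non-cachectic libraries, and it was lower by the test (-3.21). Its part in the result was not tested.

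Ccl8 was at 5.39, 6.00, 12, 33.3 and 39.6 TPM in the cachectic tibialis anterior against 0.377, 0.445, 0.571, 0.659 and 5.69 TPM. A single non-cachectic library, at 5.69 TPM, lay within the cachectic range, and the difference was 2.90 ± 0.577 (SE), adjusted p = 0.00303 (limma). Macrophage markers summed to 53.0 to 376 TPM against 32.2 to 65.1 TPM, and all 8 tested were higher (6 after scaling), where 56.4% of all genes were. Neutrophil markers summed to 7.82 to 56.1 TPM against 1.22 to 4.12 TPM, and 2 of 2 tested were higher, as they were after scaling. Their part in the result was not tested.

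Cxcl14 was at 65.7, 87.2, 97.7, 133 and 137 TPM in cachectic and at 27.2, 27.7, 30.7, 30.9 and 35.8 TPM in non-cachectic tibialis anterior, with no overlap. Its difference of 1.70 ± 0.185 (SE) had an adjusted p of 0.000118 (limma). Ccl11 was at 17.2, 19.6, 26.7, 28.1 and 28.1 TPM against 11.9, 17.4, 17.4, 17.6 and 18.3 TPM, a difference of 0.50 (adjusted p = 0.0241) that was 0.06 (adjusted p = 0.799) after scaling. Cxcl12, at 20.9 to 40.7 TPM against 20.2 to 26.3 TPM, differed by 0.19 (adjusted p = 0.336) and by -0.26 (adjusted p = 0.0322) after scaling, so its direction rests on the scaling.

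Of the genes too low for the filter, Cxcl10 was at 0.103, 1.04, 1.96, 4.56 and 11.9 TPM in cachectic and at 0, 0.0299, 0.0605, 0.0899 and 0.332 TPM in non-cachectic tibialis anterior. Ccl7 was at 0.135, 0.550, 1.58, 1.90 and 2.56 TPM against 0, 0, 0.0709, 0.120 and 0.545 TPM. Without the filter both were higher by limma (1.65, adjusted p = 0.0411, and 0.93, adjusted p = 0.0338). Ccl2 (0.142 to 3.69 TPM against 0.0426 to 0.296 TPM; 0.96, adjusted p = 0.0567), Cxcl9 (1.26, adjusted p = 0.138) and Cxcl1 (0.07, adjusted p = 0.597) did not pass.

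In the soleus Ccl8 and Cxcl14 were higher with the cachectic melanoma among 4 chemokines tested, and limma called 25.1% of all 11957 genes and 17.5% as higher. Cxcl13 missed the filter but its groups did not overlap, as held for 20% of genes tested: it was at 0.877, 3.26, 8.13, 11 and 35.6 TPM in cachectic and 0.0490, 0.140, 0.147, 0.194 and 0.286 TPM in non-cachectic libraries, and without the filter it was higher by 2.78 ± 0.642 (SE), adjusted p = 0.0179 (limma), for 3 of 10 chemokines.

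Ccl8 was at 4.52, 5.59, 10.3, 18.4 and 25.6 TPM in the cachectic soleus and at 0.547, 1.07, 1.89, 2.09 and 5.75 TPM in the non-cachectic. The highest non-cachectic library overlapped the cachectic ones, and the difference was 2.02 ± 0.473 (SE), adjusted p = 0.0101 (limma). It did not pass by the Dunn test (adjusted p = 0.0898). Of 9 macrophage markers 1, Cd68, was higher in the soleus, where 17.5% of all genes were, and their sum was at 94.0 to 428 TPM against 120 to 165 TPM. Ccl8 had 3 of 5 cachectic libraries above the highest non-cachectic one, and the macrophage marker sums overlapped as well. Neutrophil markers summed to 8.47 to 33.3 TPM against 3.37 to 5.25 TPM. Of these, 2 of 2 tested were higher, as they were after scaling, where 17.5% of all genes were before it. Their part in the result was not tested. Cxcl14 was at 35.3, 42.6, 60.6, 79.5 and 96.2 TPM against 18, 20.3, 20.3, 23.7 and 27.8 TPM, with no overlap, a difference of 1.39 ± 0.243 (SE) and an adjusted p of 0.00261 (limma). Without the cachectic library of high Myh4 the differences were 2.03 for Ccl8 (adjusted p = 0.0211) and 1.57 for Cxcl14 (adjusted p = 0.0012).

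Cxcl12 (51.7 to 72.4 TPM against 45.2 to 58.0 TPM) and Ccl11 (15.0 to 35.5 TPM against 24.6 to 32.9 TPM) did not pass in the soleus, with differences of 0.30 (adjusted p = 0.0583) and -0.35 (adjusted p = 0.246). The library of high Myh4 had the lowest Cxcl12, and without it Cxcl12 was called higher (0.39, adjusted p = 0.0116). A single cachectic soleus library was the highest of its group for Ccl2 (5.98 TPM), Ccl7 (4.56 TPM), Cxcl1 (1.28 TPM), Cxcl9 (21.5 TPM) and Cxcl10 (12.6 TPM).

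Cxcl10 was at 0.244, 0.388, 0.497, 1.58 and 12.6 TPM in the cachectic soleus and at 0, 0.104, 0.167, 0.176 and 0.385 TPM in the non-cachectic, so 4 of 5 cachectic libraries were above the highest non-cachectic one. Cxcl9 was at 0.149, 0.183, 0.269, 8.51 and 21.5 TPM against 0.164, 0.407, 0.747, 0.925 and 1.07 TPM, with 2 of 5 above. Without the filter the inducible genes did not pass in the soleus, with differences of 1.09 for Cxcl10 (adjusted p = 0.251), 1.00 for Cxcl9 (adjusted p = 0.475), 0.41 for Ccl7 (adjusted p = 0.532), 0.36 for Ccl2 (adjusted p = 0.64) and -0.24 for Cxcl1 (adjusted p = 0.509).

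**Figure D2:**
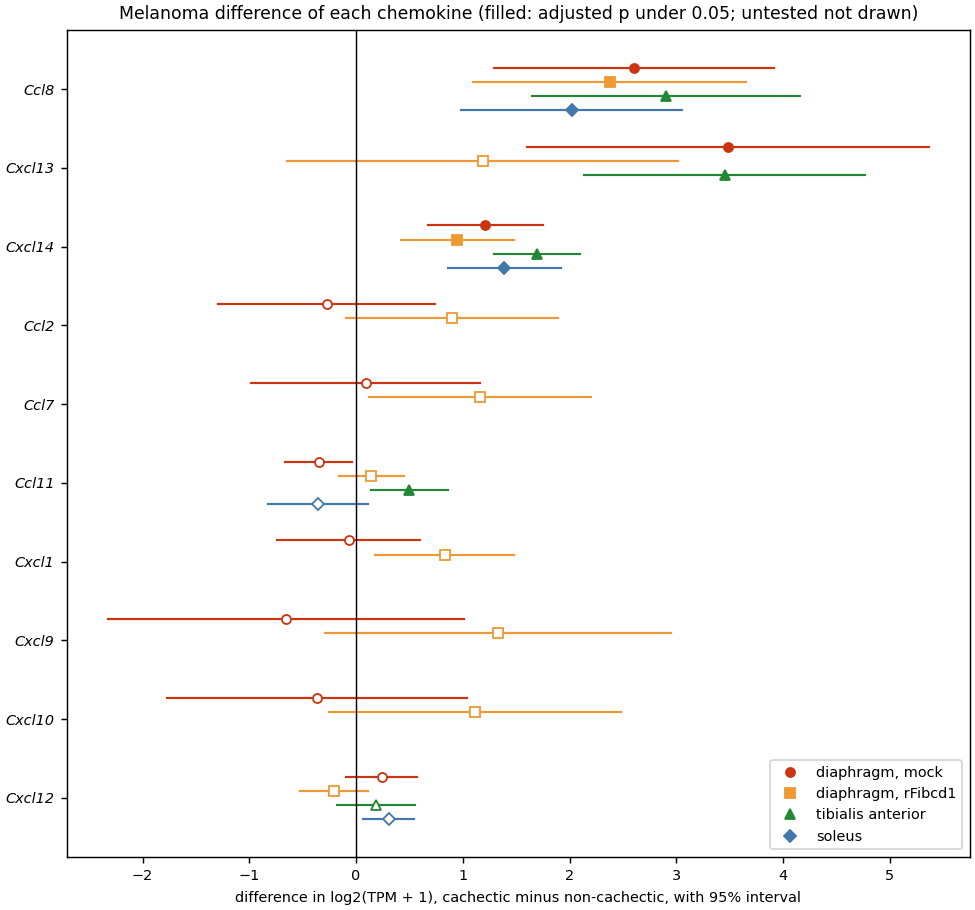
Cachectic minus non-cachectic difference of each chemokine in log2(TPM + 1) on the x axis, with its 95% interval, in the mock diaphragm, the rFibcd1 diaphragm, the tibialis anterior and the soleus; filled symbols have an adjusted p under 0.05 and untested genes are not drawn. By limma Ccl8 (2.02 to 2.90) and Cxcl14 (0.95 to 1.70) are filled in all 4 comparisons, and Cxcl13 is filled in the mock diaphragm (3.48) and tibialis anterior (3.45). By the Dunn test Ccl8 did not pass in the soleus, nor did Ccl8 and Cxcl14 in the rFibcd1 diaphragm.

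Whether the melanoma difference itself differed between muscles was tested in 1 fit of the 39 libraries without rFibcd1. In the limb muscles the library state goes wholly with the melanoma, while in the mock diaphragm both states occur with each melanoma. The part of the state in these contrasts cannot be told apart from that of the melanoma. Ccl11 differed between diaphragm and tibialis anterior by -0.85 ± 0.237 (SE; adjusted p = 0.031, limma) and between tibialis anterior and soleus by 0.85 ± 0.271 (SE; adjusted p = 0.0259), and it was called higher with the cachectic melanoma in the tibialis anterior and in neither of the other muscles. After scaling these were -0.63 (adjusted p = 0.13) and 0.52 (adjusted p = 0.242), and without the cachectic soleus library of high Myh4 the latter was 0.74 (adjusted p = 0.0594). Summed fibroblast markers were at 328 to 671 TPM in cachectic and 177 to 311 TPM in non-cachectic tibialis anterior, with 4 of 7 tested higher, where 56.4% of all genes were, and at 383 to 843 TPM and 643 to 848 TPM in the soleus, with 1 of 8 higher and 4 lower, where 17.5% and 7.54% of all genes were. In the mock diaphragm they were at 964 to 1691 TPM and 856 to 1329 TPM, with 2 of 8 higher, where 30.9% of all genes were. What part these cells had in the result was not tested. This was 1 of 10 chemokines in each of the 2 contrasts, where 5.04% and 20.4% of 13501 genes passed, and no chemokine passed for diaphragm against soleus (none at an unadjusted p under 0.05 either), where 2.52% did. For Cxcl13 the interval of the difference between diaphragm and tibialis anterior was -2.25 to 2.31, for Ccl8 -1.81 to 1.22 and for Cxcl14 -1.15 to 0.19. Each interval spans 0. The 6 other genes ran from -2.01 (Cxcl10) through -1.92 (Cxcl9), -1.23 (Ccl2), -0.84 (Ccl7) and -0.14 (Cxcl1) to 0.05 (Cxcl12) in that contrast, with adjusted p of 0.139 and above. For diaphragm against soleus the 10 differences lay between -1.66 (Cxcl9) and 0.70 (Cxcl13), and for tibialis anterior against soleus the 9 beside Ccl11 lay between -0.12 (Cxcl12) and 0.88 (Ccl8). With the library number of the table as a block, which may mark muscles of 1 mouse, the calls of Ccl11 stayed (adjusted p of 0.012 and 0.00459), and 2317, 994 and 5569 genes were called in the 3 contrasts in place of 681, 340 and 2750.

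Levels also differed between muscles in mice with the non-cachectic melanoma. The mock diaphragm had more of 9 of the 10 chemokines than the tibialis anterior, where 72.5% of all genes passed and 64% as higher, with Cxcl12 higher by 1.48 (adjusted p = 1.16e-09, limma), Cxcl13 by 2.59 (adjusted p = 0.00448) and Ccl8 by 2.04 (adjusted p = 0.000977). Ccl2 (1.40), Ccl7 (1.35), Ccl11 (0.80), Cxcl1 (0.83), Cxcl10 (1.5) and Cxcl9 were higher too. Cxcl14 was the exception (-0.18, adjusted p = 0.485) and was lower in the diaphragm after scaling (-0.59, adjusted p = 0.0137), and the call of Cxcl9 (1.63, adjusted p = 0.0469) was lost after scaling. Against the soleus 4 of 10 were higher in the diaphragm, where 38.8% of genes passed and 16.8% as higher, namely Cxcl13 (2.58), Ccl8 (1.54), Ccl2 (1.06) and Ccl7 (1.06), and 7 were after scaling. Without either of 2 non-cachectic soleus libraries 1 was called, Cxcl13, with Ccl2, Ccl7 and Ccl8 at adjusted p of 0.0531 to 0.0737. Ccl11 (0.02), Cxcl1 (0.58), Cxcl9 (1.31), Cxcl10 (1.42), Cxcl12 (0.31) and Cxcl14 (0.27) did not pass, but with the library number as a block Cxcl1 (0.62, adjusted p = 0.0134) and Cxcl10 (1.35, adjusted p = 0.037) did.

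Between the 2 limb muscles Cxcl12 (-1.17, adjusted p = 1.83e-06) and Ccl11 (-0.78, adjusted p = 0.000546) were lower in the tibialis anterior, where 69.5% of genes passed and 63.9% as lower. After scaling Ccl11 did not pass (-0.29, adjusted p = 0.22) and Cxcl14 was higher in the tibialis anterior (0.96, adjusted p = 0.000913), as it was with the block (0.46, adjusted p = 0.0393). The other 7 genes differed by -0.50 (Ccl8) to -0.01 (Cxcl13).

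Under rFibcd1 Ccl8 and Cxcl14 were again higher in the cachectic diaphragm, and Cxcl13 was not called. Of the 10 chemokines 2 passed, where 9.11% of all genes did and 7.14% as higher. The rFibcd1 and mock libraries share 1 fit, and each rFibcd1 comparison below shares samples with those above.

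Ccl8 ranged from 3.42 to 342 TPM, median 62.1 TPM, in cachectic rFibcd1 diaphragms and from 0.774 to 67.7 TPM, median 11.7 TPM, in non-cachectic ones, a difference of 2.37 ± 0.631 (SE), adjusted p = 0.0148 (limma). The groups overlapped over much of their range. Cxcl14 ranged from 12.7 to 112 TPM, median 47.4 TPM, against 14 to 28.2 TPM, median 23.9 TPM, with 7 of 10 cachectic libraries above the highest non-cachectic one and a difference of 0.95 ± 0.260 (SE), adjusted p = 0.0178. Neither passed in a Dunn test, in a fit of the 2 groups alone or in the high-state libraries alone (adjusted p of 0.0761 to 0.315).

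Cxcl13 ranged from 23.4 to 845 TPM, median 47.6 TPM, in cachectic rFibcd1 diaphragms and from 1.05 to 482 TPM, median 52.8 TPM, in non-cachectic ones. The non-cachectic rFibcd1 group thus spanned most of the diaphragm range of the gene on a log scale. The difference was 1.19 (95% interval -0.65 to 3.02, adjusted p = 0.432). Summed B cell markers in these groups were at 21.4 to 1471 TPM and 42.4 to 3592 TPM. Their part in the result was not tested.

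Ccl7 (1.16, adjusted p = 0.148), Cxcl1 (0.83, adjusted p = 0.0934), Ccl2 (0.90), Cxcl9 (1.33), Cxcl10 (1.11), Ccl11 (0.14, adjusted p = 0.585) and Cxcl12 (-0.21, adjusted p = 0.437) did not pass under rFibcd1. Without 1 cachectic rFibcd1 library Ccl7 (1.46, adjusted p = 0.0461) and Cxcl1 (0.95, adjusted p = 0.0496) passed and 4 chemokines were called. Calls over all genes were not counted without that library.

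The direct comparison of rFibcd1 with mock asks what the injected protein changed. In cachectic diaphragms no chemokine passed by limma or by the Dunn test, where limma called 0.0447% of all genes, with 7 of 10 at an unadjusted p under 0.05 by limma, where 10.5% of all genes were, and 3 by Dunn. The 7 were Ccl2 (1.59, p = 0.0024, adjusted p = 0.253), Ccl11 (0.49, p = 0.00242, adjusted p = 0.253), Cxcl1 (0.90, p = 0.00825, adjusted p = 0.318), Ccl7 (1.38, adjusted p = 0.345), Cxcl9 (1.71, adjusted p = 0.455), Cxcl10 (1.44, adjusted p = 0.455) and Cxcl14 (-0.54, adjusted p = 0.468), in limma's fit. The first 6 had positive differences and Cxcl14 a negative one. Ccl8 (-0.09), Cxcl12 (-0.14) and Cxcl13 (0.14) had adjusted p of 0.795 and above.

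Ccl2 ranged from 0.352 to 3.86 TPM, median 1.66 TPM, in cachectic mock diaphragms and from 0.419 to 128 TPM, median 6.37 TPM, in cachectic rFibcd1 ones. Of the 10 rFibcd1 libraries 5, at 9.33, 12.5, 14.6, 16.4 and 128 TPM, were above the highest mock library, and the other 5 lay within the mock range, at 0.419 to 3.42 TPM. Ccl7 had the same form, with 0.429 to 5.90 TPM, median 1.88 TPM, against 0.265 to 134 TPM, median 6.81 TPM. Cxcl9 (0.0184 to 8.28 TPM against 0.0648 to 230 TPM) and Cxcl10 (0.238 to 6.19 TPM against 0.132 to 150 TPM) likewise had 5 of 10 rFibcd1 libraries above the highest mock library and the others within or below the mock range.

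A single cachectic rFibcd1 library was the highest of its group for 7 of the 10 chemokines: Ccl2 (128 TPM), Ccl7 (134 TPM), Ccl8 (342 TPM), Ccl11 (45.2 TPM), Cxcl1 (21.3 TPM), Cxcl9 (230 TPM) and Cxcl10 (150 TPM). The same library had the highest marker sums of all 59 for macrophages (3666 TPM), monocytes and dendritic cells (105 TPM), fibroblasts (2502 TPM), T cells (46.6 TPM) and NK cells (72.8 TPM), while its neutrophil sum of 114 TPM was below the 438 TPM of another library of its group. Their part in the result was not tested. Without that library the differences were 1.14 for Ccl2, 0.92 for Ccl7, 1.17 for Cxcl9 and 0.93 for Cxcl10 (adjusted p of 0.496 to 0.81), and Ccl8 moved from -0.09 to -0.41. Among high-state libraries alone Ccl2 (2.04, adjusted p = 0.0354) and Ccl11 (0.53, adjusted p = 0.0439) passed, where 789 of all genes did in place of 6. Ccl2 also passed without another single cachectic rFibcd1 library (1.84, adjusted p = 0.0492), where calls over all genes were not counted.

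In non-cachectic diaphragms no chemokine passed for rFibcd1 against mock by limma or by Dunn, where limma called 0.417% of all genes, with 1 of 10 at an unadjusted p under 0.05 by limma, where 17.4% of all genes were, and 2 by Dunn. Cxcl13 was that gene in limma, at 1.16 to 91.1 TPM under mock and 1.05 to 482 TPM under rFibcd1, a difference of 2.44 (95% interval 0.56 to 4.32, p = 0.0125, adjusted p = 0.25). Its median in high-state and low-state libraries was 2.50 and 5.85 TPM under mock and 165 and 9.64 TPM under rFibcd1. Summed B cell markers were at 18.7 to 691 TPM under mock and 42.4 to 3592 TPM under rFibcd1. The part of the state and of these cells was not tested. Cxcl12 was above the mock median in all 10 rFibcd1 libraries (70.0 to 106 TPM against 56.7 to 100.1 TPM) and differed by 0.31 (adjusted p = 0.297), which passed in a fit of these 2 groups alone (adjusted p = 0.0428). In that fit 2453 of all genes were called, in place of 56. The other differences were 0.42 for Ccl2, 0.30 for Ccl7, 0.14 for Ccl8, -0.01 for Ccl11, -0.004 for Cxcl1, -0.28 for Cxcl9, -0.04 for Cxcl10 and -0.28 for Cxcl14, with adjusted p of 0.491 and above.

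Whether the melanoma difference depended on rFibcd1 was tested as an interaction, and limma called 0.0223% of all genes and no chemokine, with Ccl11 alone at an unadjusted p under 0.05, where 8.79% of all genes were (0.49, p = 0.0268, adjusted p = 0.548). The interaction of Cxcl13 was -2.30 with a 95% interval of -4.92 to 0.33 (adjusted p = 0.621). The other 8 ran from -0.45 (Cxcl12) to 1.99 (Cxcl9), with adjusted p of 0.584 and above.

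**Figure D3:**
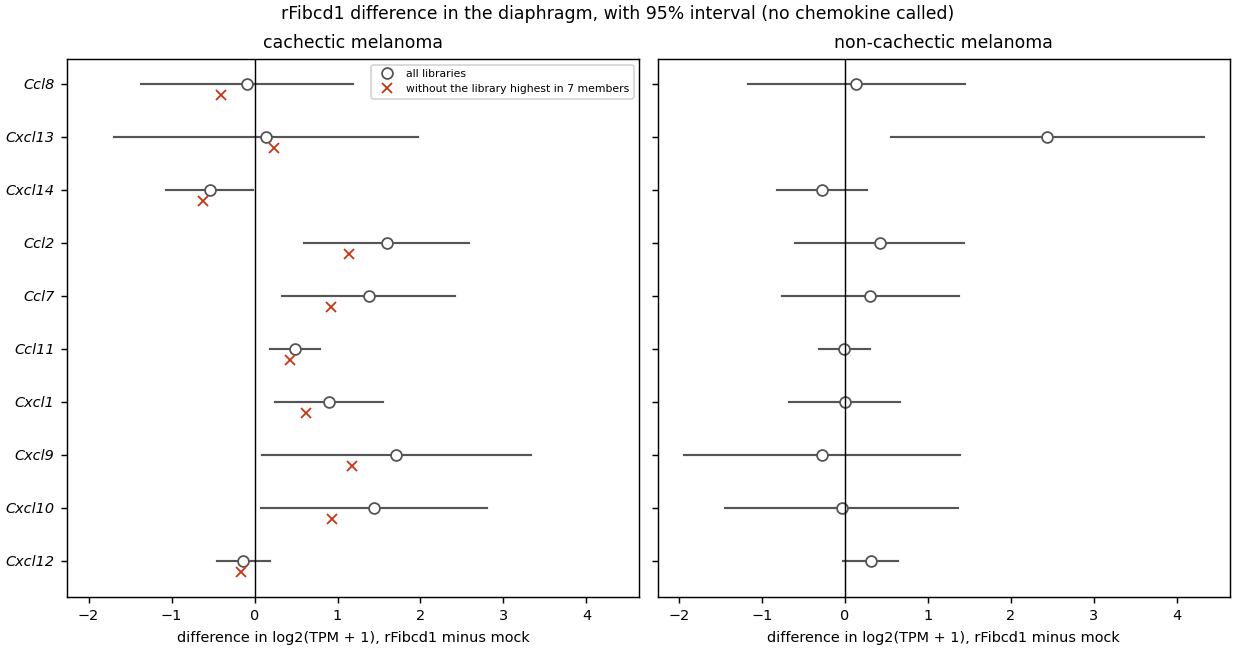
rFibcd1 minus mock difference of each chemokine in log2(TPM + 1) on the x axis, with its 95% interval, in cachectic (left) and non-cachectic (right) diaphragms; circles are all libraries and crosses leave out the library that was highest in 7 chemokines. No chemokine was called; in cachectic diaphragms Ccl2, Ccl7, Cxcl9 and Cxcl10 move from between 1.38 and 1.71 to between 0.92 and 1.17 without that library.

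Ccl2, Ccl7, Ccl8, Cxcl9 and Cxcl10 varied together from library to library, Cxcl1 followed them less closely, and Ccl11, Cxcl12, Cxcl13 and Cxcl14 did so least. Deviations from the group means of log2(TPM + 1) were compared across the 39 diaphragm libraries, as a description, since the libraries share tissue composition. The library state was not taken out of them. Median Ccl8 in high-state and low-state libraries was 20.9 and 1.78 TPM in the non-cachectic and 78.1 and 10.6 TPM in the cachectic rFibcd1 group. For Cxcl9 these were 4.19 and 0.218 TPM, and 15.4 and 0.0851 TPM. Ccl2 went the other way in the non-cachectic mock group (1.22 and 1.51 TPM). The part of the state in the r values was not tested. Over the 45 pairs Pearson's r ran from -0.30 to 0.97 with a median of 0.34. Ccl2 and Ccl7, close in the genome and ligands of the same receptor, had an r of 0.97 (rho 0.91), and so had Cxcl9 and Cxcl10 (r = 0.97, rho 0.95). The pairs were also close to each other, with 0.89 for Ccl2 and Cxcl10 and 0.86 for Ccl2 and Cxcl9, and Ccl8 joined them with 0.80 for Ccl7. Cxcl1 had its highest r with Ccl2 (0.70, and 0.49 without 2 libraries). Ccl11, which lies between Ccl7 and Ccl8 in the genome, had an r of 0.49 with the first and 0.43 with the other, which fell to 0.29 and 0.26 without the 2 libraries farthest from the median. Cxcl13, which of the 10 had the largest melanoma difference in the mock diaphragm, had no r above 0.30 with another chemokine, and Cxcl14 none above 0.21.

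**Figure D4:**
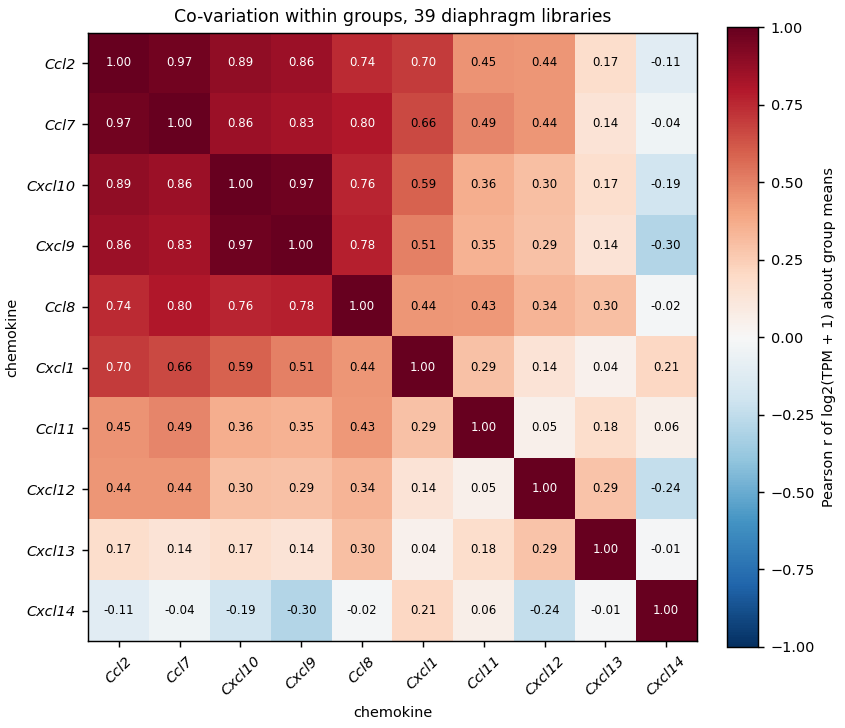
Pearson's r of log2(TPM + 1) about the group means for each pair of the 10 chemokines (both axes) over 39 diaphragm libraries, on a colour scale from -1 to 1. The library state was left in. Ccl2, Ccl7, Cxcl9, Cxcl10 and Ccl8 form a block with r of 0.74 to 0.97, and the row of Cxcl14 stays between -0.30 and 0.21.

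The genes most like each chemokine in the same libraries, among 13426 searched and with the library state left in, differed by set. After each other, Cxcl9 and Cxcl10 were closest to the cytotoxic-granule gene Nkg7 (r = 0.96 and 0.95), and Cxcl9 also to Ccl5 (0.94) and Cxcl10 to Ctsw (0.94). After each other, Ccl2 and Ccl7 were close to the interferon-response factor Irf1 (0.93 and 0.90). Ccl8 was closest to the myeloid genes Ms4a6c (0.91) and Clec4a3 (0.90) and to Slfn2 (0.90), and Cxcl1 to Il1b (0.75), Il1rn (0.72) and Chil1 (0.72).

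Cxcl13 was closest to Cyp1b1 (0.88) and to the immunoglobulin light-chain genes Igkv8-24 (0.86) and Iglc3 (0.86). Ccl11 had weak neighbours, led by the clock gene Dbp (0.66), with Rcn3 (0.64) and 5033430I15Rik (0.63). Cxcl12 was closest to Pigo (0.86), Ncapd2 (0.85) and Fam73b (0.82), and Cxcl14 to Cd63 (0.79), Mid1ip1 (0.77) and Dnajc2 (0.73).

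Against summed marker lists over the same 39 libraries, with the library state left in, Cxcl13 had an r of 0.85 with B cells. It had one of 0.79 with adipocytes, and Cxcl9 had one of 0.91 with T cells. In these athymic mice the T cell sums were at 0.978 to 9.16 TPM in cachectic mock and 0.613 to 15.7 TPM in non-cachectic mock diaphragms. Under rFibcd1 they were at 0.414 to 46.6 TPM in cachectic and 0.224 to 19.2 TPM in non-cachectic diaphragms. Ccl8 had an r of 0.82 with T cells, 0.78 with NK cells and 0.77 with macrophages, and Cxcl14 had an r of -0.03 with macrophages and none above 0.27 with any list. Mesothelial markers, which come from the lining of the diaphragm, summed to 76.0 to 317 TPM and 92.6 to 279 TPM in the mock groups with none of 7 called, and to at most 6.22 TPM in a limb muscle library.

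**Figure D5:**
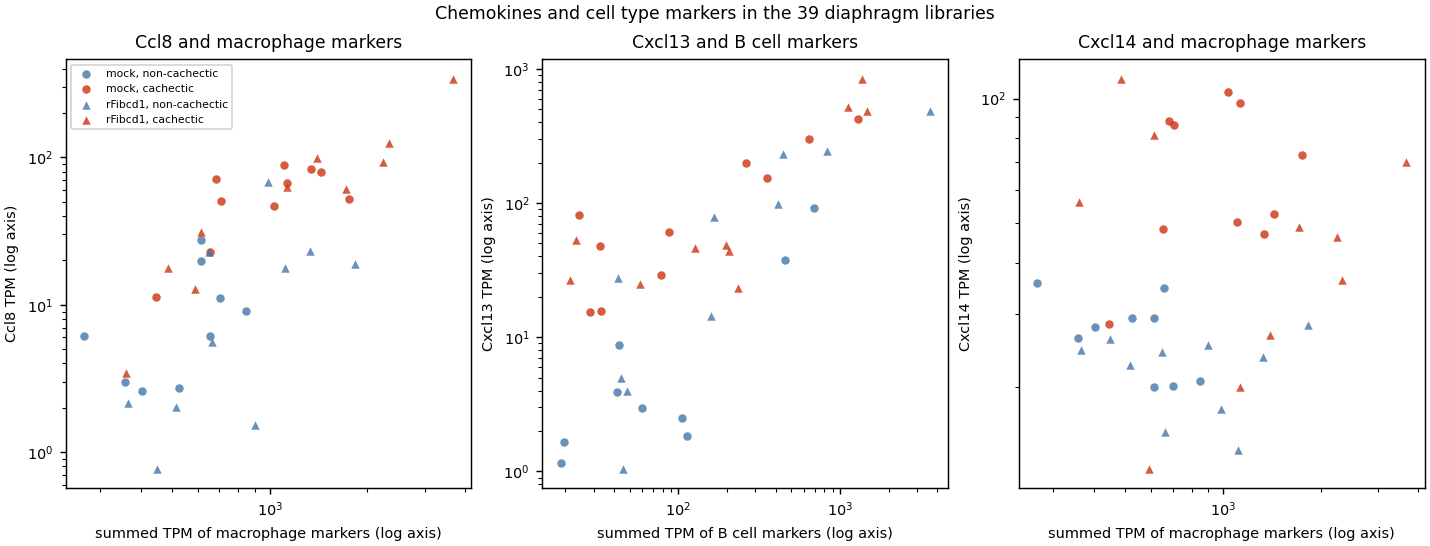
TPM of Ccl8 against summed macrophage markers, of Cxcl13 against summed B cell markers and of Cxcl14 against summed macrophage markers in each of the 39 diaphragm libraries, on log axes (blue non-cachectic, red cachectic; circles mock, triangles rFibcd1). Ccl8 and Cxcl13 follow the marker sums within groups (r = 0.77 and 0.85), and Cxcl14 has an r of -0.03 with macrophage markers. The part of these cells in the differences was not tested.

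Other chemokines, their receptors and the genes that induce them were counted from lists. Of 15 other chemokines tested in the mock diaphragm 3 were higher and 1 lower, where 30.9% of all genes were called higher and 2.67% lower, with a list median of 0.31 beside 0.20 for all genes. The macrophage chemokines Ccl6 (1.62, adjusted p = 0.00104) and Ccl9 (1.08, adjusted p = 0.00474) and the platelet and macrophage chemokine Pf4 (0.87, adjusted p = 0.00221) were higher, and Cxcl11, the remaining Cxcr3 ligand, was lower (-0.52, adjusted p = 0.00789; 0.317 to 1.03 TPM against 0.392 to 2.26 TPM). Ccl6, Ccl9 and Pf4 were also the 3 of 8 that were higher in the tibialis anterior (2.19, 1.17 and 1.03), where 56.4% of all genes were, and after scaling 2 of the 8 were higher and 2 lower. In the soleus Ccl6 was higher (0.82, adjusted p = 0.0439) and Ccl24 (-0.92, adjusted p = 0.00426) and Ccl27a (-0.43, adjusted p = 0.0116) were lower, of 10 tested, where 17.5% of all genes were higher and 7.54% lower, and the list median was -0.14 beside 0.09 for all genes.

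Among chemokine receptors, Ackr1, the venular receptor that binds many CC and CXC ligands without signalling, was called higher in all 3 muscles: by 1.52 (adjusted p = 1.49e-06) in the mock diaphragm, 1.76 (adjusted p = 0.000722) in the tibialis anterior and 1.46 (adjusted p = 0.000388) in the soleus. Its level was 7.56 to 15.7 TPM in cachectic and 2.33 to 5.43 TPM in non-cachectic mock diaphragms, with no overlap, as held for 4.6% of genes tested there. Of 7 endothelial markers 5 were higher in the mock diaphragm (2 higher and 1 lower after scaling), 5 higher and 1 lower in the tibialis anterior (4 and 1 after scaling), and 2 higher and 1 lower in the soleus (1 and 2 after scaling). The shares of all genes called higher were 30.9%, 56.4% and 17.5%. Their sums were at 218 to 318 TPM against 189 to 254 TPM, 131 to 278 TPM against 99.4 to 137 TPM, and 174 to 283 TPM against 175 to 222 TPM, and their part in the result was not tested. Ccr1 (1.19, adjusted p = 0.0171) and the scavenging receptor Ackr2 (0.66, adjusted p = 0.0215) were higher in the mock diaphragm, making 3 of 16 tested (2 after scaling), where 30.9% of all genes were. Ccrl2 was lower in the soleus (-0.33, adjusted p = 0.0327). The list medians were 0.34, 0.47 and 0.11 in the diaphragm, tibialis anterior and soleus.

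Of the cytokines, receptors and transcription factors that act upstream of chemokine genes, 15 of 27 tested were higher in the mock diaphragm, 19 of 22 in the tibialis anterior and 14 of 22 in the soleus, where 1 was lower (Ifngr2, -0.26, adjusted p = 0.031). The shares of all genes called higher were 30.9%, 56.4% and 17.5%. The list medians were 0.57, 0.98 and 0.60 beside 0.20, 0.41 and 0.09 for all genes. Socs3, a target and inhibitor of STAT3 signalling, led in each muscle with differences of 2.45 (adjusted p = 1.49e-06), 3.78 (adjusted p = 5.34e-06) and 2.62 (adjusted p = 4.27e-05), followed by Cebpd, a factor of the acute phase, with 2.25, 2.96 and 2.10. Osmr, the oncostatin M receptor, came next in the diaphragm (1.43) and soleus (1.34), and Stat3 in the tibialis anterior (2.12).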

How the data were processed

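RNA was extracted with Trizol and sequenced on the Illumina platform from stranded mRNA libraries, per the labels, with mm10 as the genome build. The authors deposited TPM, made with CLC Genomics Workbench, in 1 table of 59 libraries. Each column sums to 1e+06, so depth is unknown and no counting interval was given. Column names gave the group but not the labelled replicate.

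Values were analysed as log2(TPM + 1), which understates changes of low genes. Genes needed TPM of at least 1 in as many samples as the smallest group of the fit. Groups were compared with limma 3.58.1 (R 4.3.3; trended eBayes, two-sided, Benjamini-Hochberg over all genes tested). The study's Kruskal-Wallis and Dunn tests were an alternative. P-values set a group difference against the spread between these libraries. In the main fits across muscles the libraries were taken as independent. The script was tested on simulated data. Tables and figures used Python 3.11.15, pandas 2.3.3, SciPy 1.17.1 and matplotlib 3.10.9.

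All 10 chemokines are named in every comparison within a muscle that contrasts melanomas or treatments, and by range in some of those between muscles and in the interaction. From the other lists the up to 3 highest and 2 lowest called genes are named, and for likeness the 3 genes of highest r, apart from some results that are not reported here. Called markers are named where few were, chosen after their values were seen. The members, lists, tests and library state were chosen with earlier results of these data known. Alternatives were a pseudocount of 0.1, no filter, median-ratio scaling of TPM, the library state as a term, high-state libraries only, Dunn tests, fits of 2 groups, leaving out each library, and the column number as a block, which was added after the data were seen. Same-numbered libraries deviated together in all 10 pairs of diaphragm and tibialis anterior (r of 0.13 to 0.50), all 10 of tibialis anterior and soleus (0.20 to 0.49) and, at r over 0.1, 8 of 10 of diaphragm and soleus. The labels do not say that a number marks a mouse.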

Additional observations from a re-analysis of the deposited data

Results flagged for a closer look

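Of 80 sets of 1 chemokine in 1 group, 10 had a highest or lowest library far from the rest by Dixon's criterion at 95% on log2(TPM + 1), a criterion that chance meets in about 1 in 20 groups. In the cachectic soleus 1 library gave 3 of them, the highest Ccl2 at 5.98 TPM (next 0.507 TPM), Ccl7 at 4.56 TPM (next 0.767 TPM) and Cxcl1 at 1.28 TPM (next 0.235 TPM), and another gave the lowest Cxcl12, at 51.7 TPM (next 65.8 TPM). In the non-cachectic tibialis anterior 1 library had the highest Ccl7, at 0.545 TPM (next 0.120 TPM), and the highest Ccl8, at 5.69 TPM (next 0.659 TPM), and the lowest Ccl11 was at 11.9 TPM (next 17.4 TPM). In the non-cachectic soleus the lowest Cxcl1 was at 0.169 TPM (next 0.593 TPM). In the non-cachectic rFibcd1 diaphragm the highest Ccl7 was at 9.78 TPM (next 3.40 TPM) and the highest Cxcl1 at 4.47 TPM (next 1.65 TPM).

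The melanoma difference of Ccl11 differed between muscles by a test of the difference itself, by -0.85 for diaphragm minus tibialis anterior and by 0.85 for tibialis anterior minus soleus (limma, adjusted p of 0.031 and 0.0259). Neither passed after scaling (-0.63, adjusted p = 0.13, and 0.52, adjusted p = 0.242), the first did not without the filter (adjusted p = 0.0501), and each was lost on leaving out any of 3 single libraries (adjusted p of 0.0563 to 0.0852 and of 0.0581 to 0.0599).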

How the results depend on the processing

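Numbers of chemokines called changed as follows. In the mock diaphragm 3 became 1 with the library state as a term. Under rFibcd1 2 became 0 in high-state libraries, with the Dunn test and in a fit of 2 groups. For rFibcd1 against mock 0 became 2 in cachectic high-state libraries and 1 in a fit of the 2 non-cachectic groups. In the soleus 2 became 1 with Dunn (Ccl8, adjusted p = 0.0898). For the melanoma difference between muscles 1 became 0 for diaphragm against tibialis anterior without the filter (adjusted p = 0.0501) and with scaling, and for tibialis anterior against soleus with scaling. For diaphragm against soleus levels 4 became 7 with scaling. Leaving out 1 library gave 3 to 4 in the mock diaphragm, 2 to 4 under rFibcd1, 0 to 1 for rFibcd1 against mock in cachectic mice, 3 to 5 in the tibialis anterior, 2 to 3 in the soleus, 7 to 9 for diaphragm against tibialis anterior levels and 1 to 6 against soleus levels, with 1 when either of 2 non-cachectic soleus libraries (columns 62 and 63) was left out. The melanoma difference between muscles gave 0 to 1 in both contrasts, with Ccl11 at an adjusted p of 0.0563 to 0.0852 for diaphragm against tibialis anterior without cachectic tibialis anterior columns 8 or 10 or non-cachectic column 63, and at 0.0581 to 0.0599 for tibialis anterior against soleus without the first or the last of these or cachectic soleus column 7. The cause was not tested.

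The differences whose sign turned had not passed the test, and of the turned values here Cxcl12 in the tibialis anterior (-0.26 with scaling) passed. In the mock diaphragm Ccl7 was -0.057 with scaling, -0.56 with the state as a term and -0.27 in high-state libraries, where Cxcl1 was 0.11. For rFibcd1 against mock in cachectic mice Ccl8 was 0.14 with the state as a term and 0.28 in high-state libraries. In non-cachectic mice Ccl7 was -0.000896 with the state as a term, Ccl8 was -0.022 with scaling and -0.48 with the state as a term, and in high-state libraries Ccl11 was 0.023, Cxcl1 0.054 and Cxcl10 0.016. The interaction of Ccl8 was 0.62 with the state as a term. Leaving out 1 library moved Ccl7 from -0.039 to 0.31 and Cxcl1 from -0.22 to 0.040 in the mock diaphragm, and for rFibcd1 against mock Ccl8 from -0.41 to 0.29 and Cxcl13 from -0.22 to 0.41 in cachectic mice. In non-cachectic mice it moved Ccl8 from -0.19 to 0.40, Ccl11 from -0.061 to 0.045, Cxcl1 from -0.14 to 0.069, Cxcl9 from -0.67 to 0.12 and Cxcl10 from -0.31 to 0.29, and the interaction of Ccl8 from -0.55 to 0.15.

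Over all genes, 4501 calls in the mock diaphragm became 2218 with scaling, 2059 with the state as a term and 805 in high-state libraries. Under rFibcd1 1223 became 0 in high-state libraries, 0 with Dunn and 335 in a fit of 2 groups. For rFibcd1 against mock 6 calls in cachectic mice became 30 with scaling, 18 with the state, 789 in high-state libraries, 0 with Dunn and 0 in a fit of 2 groups, and 56 in non-cachectic mice became 36 with the state, 0 in high-state libraries, 14 with Dunn and 2453 in a fit of 2 groups. The interaction's 3 became 1 without the filter and 0 with the state. For tibialis anterior against soleus 2750 became 1343 with scaling.

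The column number in the table was tried as a replicate block across muscles, a choice made after the data were seen. It is not the labelled replicate number. Each diaphragm correlated best with the tibialis anterior of its own number in 10 of 10 cases, with its soleus in 7, and each tibialis anterior with its soleus in 8, among the 5 libraries of the same melanoma, a hint from the data that the number marks a mouse. With the block (consensus correlation 0.381) the melanoma differences between muscles called 1, 0 and 1 chemokines as before and the level comparisons 9, 6 and 3 in place of 9, 4 and 2, and over all genes the melanoma differences called 2317, 994 and 5569 in place of 681, 340 and 2750. Depth cannot be read from TPM, so no counting error is known for the low genes.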
